A study of Mus musculus with 9 samples.

Results

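The genes described here mark the macrophages of the mouse liver: 5 genes typical of Kupffer cells, the resident liver macrophages (Clec4f, Vsig4, Timd4, Cd5l and Marco), and 4 genes expressed by macrophages in general (Adgre1, Csf1r, Mpeg1 and Lyz2). They were chosen by gene symbol and are 9 of the 27945 genes with an entry in the count table. All 9 passed the filter on low counts, as did 18113 genes in all, so no gene of the set is left out of the tests. Polyadenylated liver RNA was sequenced in 9 libraries, with 3 labelled treated, 3 model and 3 control. The study's title concerns liver injury caused by gefitinib, a drug that blocks the EGF receptor kinase. The labels give no dose, time, strain, sex, age or batch, and do not say what treated mice received or what the model group is beyond its name. They speak of liver cells in the titles and of liver as the source, and leave open whether each library is a separate animal. P-values therefore measure the spread between these libraries, which may in part be technical.

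Kupffer cells line the liver sinusoids, where they take up particles, bacteria and ageing red cells from portal blood. Most are seeded before birth and renew themselves under signals from neighbouring endothelial, stellate and liver parenchymal cells, which maintain genes such as Clec4f, Vsig4 and Timd4. When resident cells are lost or the liver is injured, blood monocytes enter and become macrophages that carry the general macrophage genes at once and acquire the resident genes later, Timd4 last. Kupffer cells depend on the receptor encoded by Csf1r, which binds the growth factors CSF1 and IL34, and on the transcription factor PU.1, encoded by Spi1.

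The bases just upstream of the transcription start are shown for 4 genes whose values differ most in kind: Mpeg1 and Lyz2, the genes with the largest treated changes, Marco, the resident gene with the largest change, and Vsig4, a resident gene with close group means. Sequences are from RefSeq promoter records of mouse build GRCm38.p6, which held 7 of the 9 genes and none for Adgre1 and Csf1r. Each runs 5′ to 3′ on the gene's own strand. It ends just before the RefSeq or the GENCODE start, whichever lies further upstream, so that the Mpeg1 sequence stops short of the gene start given further on and the Lyz2 sequence is shorter than the others: chr19:12460520-12460769, plus strand, for Mpeg1, chr10:117282322-117282522, minus strand, for Lyz2, chr1:120505025-120505274, minus strand, for Marco, and chrX:96293439-96293688, minus strand, for Vsig4. Capitals mark the word GAGGAA, a form of the sequence bound by PU.1, or its reverse complement. Other forms of that sequence were not marked.
Mpeg1: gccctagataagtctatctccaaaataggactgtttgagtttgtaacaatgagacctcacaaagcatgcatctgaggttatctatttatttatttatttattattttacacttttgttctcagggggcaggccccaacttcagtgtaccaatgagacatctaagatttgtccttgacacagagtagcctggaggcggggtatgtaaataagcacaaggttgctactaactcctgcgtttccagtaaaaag
Lyz2: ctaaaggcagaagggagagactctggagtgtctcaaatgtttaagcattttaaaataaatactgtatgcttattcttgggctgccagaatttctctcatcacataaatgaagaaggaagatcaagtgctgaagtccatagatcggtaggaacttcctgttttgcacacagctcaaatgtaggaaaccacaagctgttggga
Marco: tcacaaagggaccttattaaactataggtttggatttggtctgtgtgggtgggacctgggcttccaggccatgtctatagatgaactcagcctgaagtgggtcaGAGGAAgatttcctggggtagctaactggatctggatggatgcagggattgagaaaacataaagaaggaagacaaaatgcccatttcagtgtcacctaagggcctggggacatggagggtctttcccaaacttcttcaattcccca
Vsig4: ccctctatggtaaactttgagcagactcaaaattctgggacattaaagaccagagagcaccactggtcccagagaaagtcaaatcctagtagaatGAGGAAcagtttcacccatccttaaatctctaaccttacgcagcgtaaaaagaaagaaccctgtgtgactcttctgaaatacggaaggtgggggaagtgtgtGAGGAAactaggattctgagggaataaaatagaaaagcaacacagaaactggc
The word GAGGAA, searched on both strands of the 250 bases before each RefSeq start (for Lyz2 and Clec4f this window runs past the GENCODE start), occurred once in Marco, 146 bases before the start, once in Cd5l, 66 bases before it, and at 2 places in Vsig4. It was not found in that window of Mpeg1, Lyz2, Clec4f or Timd4. Of 32851 promoter windows of this length, 23.3% held it. The longer word GAGGAAGT, which contains it, was in none of the 7 windows and in 2.44% of all. The MAF word TGCTGAC occurred only in Timd4, 45 bases before the start, and in 3.81% of all windows. The C/EBP word TTGCNNAA, the AP-1 word TGANTCA and the E-box word CACGTG were in none of the 7 windows, and in 9.56%, 6.75% and 6.02% of all. These matches describe letters in a window and are not binding sites.

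Libraries held 56440871 to 60665156 estimated counts in total and 20579 to 21441 genes with a count, so depth was nearly even. Some libraries held skeletal muscle transcripts: the 7 muscle markers of a fixed list summed to 94.4 to 126 CPM in treated livers, to 142 CPM in model replicate 1, to 0.799 and 0.630 CPM in model replicates 2 and 3, and to 0.268 to 1.06 CPM in control livers. CPM scales counts to a common library size. None of the 7 was called in any comparison (edgeR), although an unadjusted p was under 0.05 for 7 in treated over control and for 3 in model over control livers, where DESeq2 called 3 and 2. Leaving out model replicate 1 changed no call among the 9 genes, and in that fit all 7 muscle markers were called higher in treated over model livers, whose remaining libraries are those without muscle transcripts. The part of these transcripts in the results was not tested. The hepatocyte markers summed to 75403 to 90477 CPM in treated livers, 98752 to 105257 CPM in model livers and 98885 to 111310 CPM in control livers.

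Liver macrophage genes did not move together. The general macrophage genes Mpeg1 and Lyz2 rose in treated livers by 3.51-fold and 6.46-fold over model livers, while the resident genes Clec4f, Vsig4 and Timd4 passed no test in any comparison. Marco, a resident gene, rose 6.18-fold in treated over control livers. Adgre1 and Csf1r, which serve as general macrophage markers too, were not called by edgeR, though some other settings called Csf1r. Calls are adjusted p-values under 0.05 (Benjamini-Hochberg over all 18113 genes) from edgeR's quasi-likelihood test. By that rule 3 of the 9 genes rose in treated compared with control livers (Marco, Mpeg1 and Lyz2), where 17.8% of all genes tested were called, 9.36% higher and 8.47% lower. Between treated and model livers 2 of 9 rose (Mpeg1 and Lyz2), against 9.65% of all genes, 5.21% higher and 4.44% lower. Between model and control livers 1 of 9 rose (Mpeg1), against 1.12% of all genes, 0.519% higher and 0.596% lower. No gene of the set fell in any comparison. Libraries of the groups did not overlap, with treated higher, for 4 genes against control (Marco, Csf1r, Mpeg1 and Lyz2), where 37.3% of all genes did not overlap, 19.3% higher and 18% lower. Treated libraries lay above all model libraries for 4 genes (Adgre1, Csf1r, Mpeg1 and Lyz2), where 31.2% of all genes did not overlap, 16.2% higher and 15% lower. Model libraries lay above all control libraries for 3 genes (Cd5l, Marco and Mpeg1), where 20% of all genes did not overlap, 9.71% higher and 10.2% lower. In bulk RNA, fewer cells of a type and less RNA per cell cannot be told apart.

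**Figure D1:**
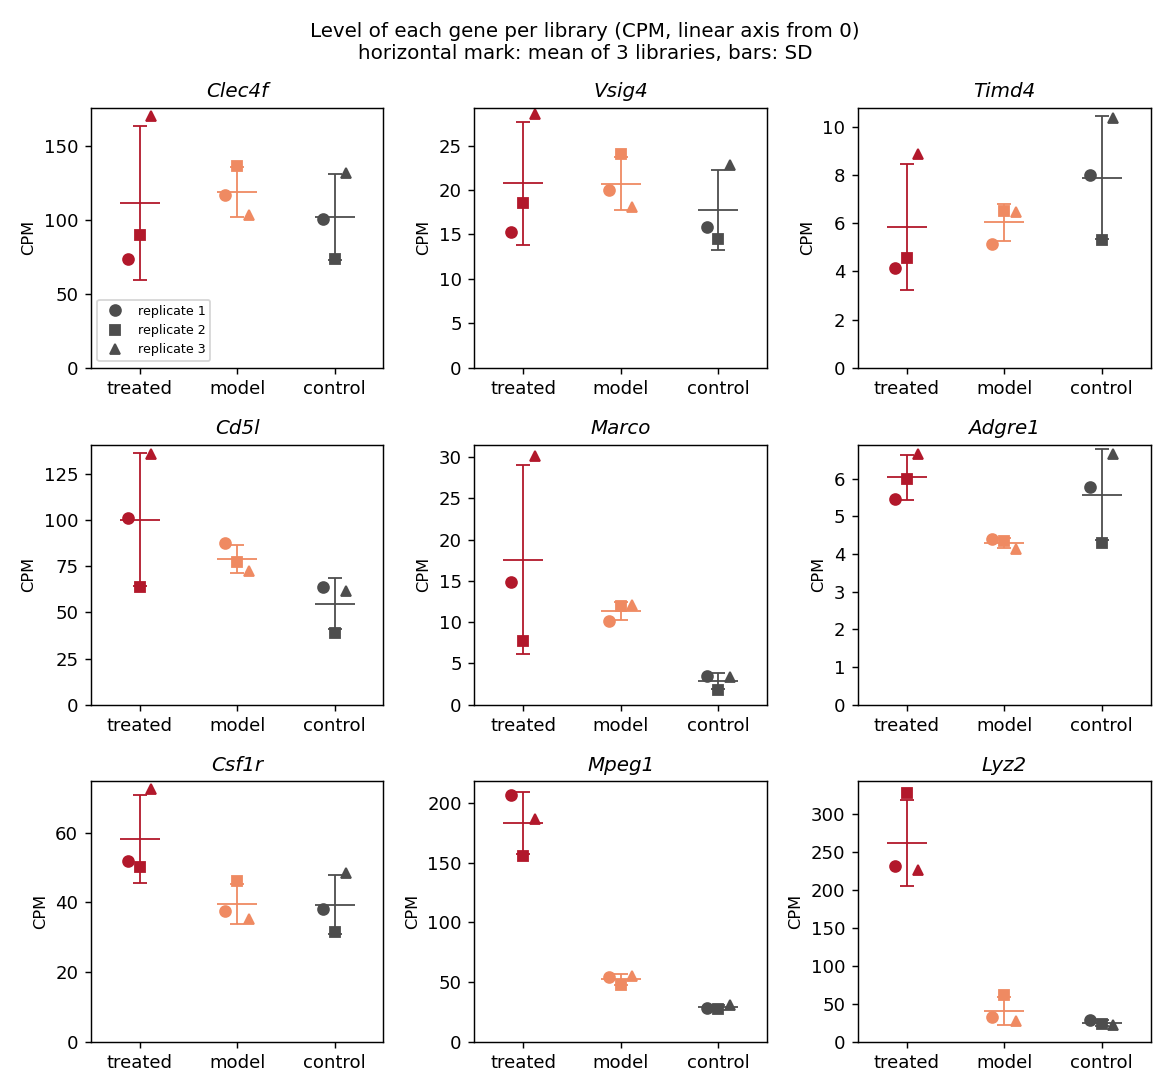
Level of each of the 9 genes in every library in CPM on a linear axis from 0, with a point per library, a line at the group mean and bars for the SD (n = 3), treated left of model and control. Mpeg1 lies at 156 to 207 CPM in treated livers, 47.1 to 55.4 CPM in model livers and 27.2 to 31.01 CPM in control livers, while the groups of Clec4f, Vsig4 and Timd4 overlap.

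Clec4f, a C-type lectin that in the mouse is made almost only by Kupffer cells, had 73.8, 90.2 and 171 CPM in the 3 treated livers, 117, 137 and 104 CPM in model livers and 101, 73.7 and 132 CPM in control livers. Treated livers held both the highest library and a value near the lowest, and the 3 groups overlapped throughout. Group means were 112 ± 51.9 CPM in treated, 119 ± 16.7 CPM in model and 102 ± 29.2 CPM in control livers (SD, n = 3 each). The fitted log2 fold change was -0.09 for treated over model, with a 95% interval of -0.85 to 0.66 (adjusted p = 0.909, edgeR). It was 0.13 for treated over control, interval -0.63 to 0.88, and 0.22 for model over control, interval -0.54 to 0.98. These intervals leave room for changes of nearly 1 log2 unit either way. The gene (ENSMUSG00000014542) lies on the minus strand at chr6:83644542-83656187 of GRCm38.

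Vsig4, the complement receptor of the immunoglobulin family that captures opsonised bacteria, followed Clec4f closely. It had 15.2, 18.6 and 28.5 CPM in treated livers, 19.98, 24.0 and 18.1 CPM in model livers, and 15.9, 14.5 and 22.8 CPM in control livers. Treated replicate 3 was again the highest library, and all groups overlapped. The log2 fold change of treated over model was 0.00, with a 95% interval of -0.54 to 0.55, the narrowest among the 5 resident genes. For treated over control it was 0.23 (interval -0.31 to 0.77) and for model over control 0.22 (interval -0.32 to 0.77). The gene spans chrX:96247203-96293438 on the minus strand, and 97.9% to 100% of its signal in each library came from 1 of its 2 listed transcripts.

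Timd4, a receptor for phosphatidylserine on dying cells and the marker most tied to long-resident Kupffer cells, had 4.14, 4.55 and 8.88 CPM in treated livers, 5.15, 6.51 and 6.47 CPM in model livers, and 8.01, 5.29 and 10.4 CPM in control livers. Among the resident genes, it was the one whose mean was highest in control livers, 7.90 ± 2.55 CPM against 5.85 ± 2.63 CPM in treated and 6.05 ± 0.774 CPM in model livers, with overlap in every pair. No difference was called: the log2 fold change was -0.43 for treated over control (interval -1.13 to 0.27, edgeR adjusted p = 0.402) and -0.39 for model over control (interval -1.09 to 0.32, adjusted p = 0.672). Between treated and model livers it was -0.05 (interval -0.75 to 0.66). Timd4 lies at chr11:46810800-46844332 on the plus strand.

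Cd5l, a secreted scavenger-receptor protein that protects macrophages from death and binds lipids, had 101, 63.7 and 136 CPM in treated livers. It had 87.4, 77.3 and 72.3 CPM in model livers and 63.8, 38.8 and 61.6 CPM in control livers. Every model library was above every control library, whereas treated replicate 2 reached only the control range. The 1.83-fold difference of treated over control had an interval of 0.24 to 1.501 in log2 and an adjusted p of 0.0621 by edgeR, so it was not called. It did pass in 7 of 20 alternative analyses, with an adjusted p of 0.00516 by DESeq2 and 0.00907 without treated replicate 2. Treated over model gave a log2 fold change of 0.34 (interval -0.28 to 0.97) and model over control 0.53 (interval -0.10 to 1.16). The gene is at chr3:87357881-87371073 on the plus strand.

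Marco, a scavenger receptor with a collagen-like stalk that binds bacteria and particles, showed the largest fold differences between groups among the resident genes. Treated livers had 14.9, 7.76 and 30.1 CPM, model livers 10.1, 11.9 and 12.1 CPM, and control livers 3.47, 1.73 and 3.32 CPM. All treated and all model libraries lay above all control libraries, while the treated libraries spread on both sides of the model libraries. The rise in treated over control livers was 6.18-fold, a log2 fold change of 2.63 (SE 0.48, edgeR adjusted p = 0.00734), and it was called in all 20 alternatives. The difference of model over control was 4.002-fold (log2 2.00, SE 0.47), with an adjusted p of 0.0961, and was not called. That call depended on the fit: it was made in 4 of 20 alternatives, including DESeq2 (adjusted p = 0.000106) and leaving out treated replicate 3 (0.0184). The SD of the treated libraries was 65.0% of their mean, and the fit takes 1 estimate of spread from all 9 libraries. Treated over model was 1.54-fold, with a log2 interval of -0.40 to 1.66 (adjusted p = 0.460). Marco lies on the minus strand at chr1:120474538-120505024, and a transcript of 17 exons and 1925 bases carried 99.2% to 100% of its signal.

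Mpeg1, which encodes perforin-2, a pore-forming protein that kills engulfed bacteria, was the only gene of the set called in every comparison. It had 207, 156 and 187 CPM in treated livers, 53.9, 47.1 and 55.4 CPM in model livers, and 28.3, 27.2 and 31.01 CPM in control livers. The groups formed 3 steps with no overlap. Treated exceeded model livers 3.51-fold (log2 1.81, SE 0.12, edgeR adjusted p = 5.59e-05) and control livers 6.35-fold (log2 2.67, SE 0.13, adjusted p = 2.76e-06). Model exceeded control livers 1.81-fold (log2 0.85, SE 0.12, adjusted p = 0.0112). All 3 calls held in each of the 20 alternatives, the highest adjusted p being 0.0466, for model over control. Mpeg1 is on the plus strand at chr19:12460779-12465283, with 1 transcript listed.

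Lyz2, the lysozyme of monocytes, macrophages and granulocytes, had 230.5, 327 and 226 CPM in treated livers, 32.5, 61.2 and 27.5 CPM in model livers, and 28.8, 22.7 and 22.3 CPM in control livers. Treated libraries stood clear of the rest, and model and control libraries overlapped. The rise was 6.46-fold over model livers (log2 2.69, SE 0.31, edgeR adjusted p = 0.00175) and 10.6-fold over control livers (log2 3.41, SE 0.32, adjusted p = 0.000325), larger than those of the other 8 genes. Model over control was 1.64-fold with an adjusted p of 0.336, and no alternative called it. The gene lies on the minus strand at chr10:117277331-117282321, next to its copy Lyz1. Their transcripts were 96.0% identical over 1262 aligned bases, so reads may have been split wrongly between the copies, but Lyz1 had at most 51 estimated counts in any library.

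Adgre1, the adhesion receptor detected by the F4/80 antibody, had 5.47, 5.99 and 6.67 CPM in treated livers, 4.41, 4.35 and 4.15 CPM in model livers, and 5.79, 4.29 and 6.66 CPM in control livers. Model libraries were all below treated ones, and control libraries spanned both. The difference of treated over model was 1.40-fold with an edgeR adjusted p of 0.175, and the gene was called in no alternative of any comparison. For treated over control the log2 fold change was 0.11 (interval -0.34 to 0.57), and for model over control -0.38 (interval -0.83 to 0.08). The interval for treated over control lies far below the changes of Mpeg1 and Lyz2 in the same libraries.

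Csf1r, the receptor for CSF1 and IL34, had 51.8, 49.98 and 72.6 CPM in treated livers, 37.4, 46.1 and 35.3 CPM in model livers, and 38.1, 31.5 and 48.4 CPM in control livers. All treated libraries were above all model and all control libraries. Yet the difference of 1.47-fold over model (edgeR adjusted p = 0.0950) and 1.48-fold over control livers (adjusted p = 0.0627) was not called. Other settings called the first in 3 of 20 analyses and the second in 5, among them scaling by library totals alone. Model over control was close to 0, at log2 0.01 (interval -0.41 to 0.42). The gene is on the plus strand at chr18:61100598-61131134 in the deposited files. In GENCODE M21 it ends further on, at 61132149, and there overlaps Hmgxb3 on the opposite strand. Whether the shorter deposited gene overlaps Hmgxb3 was not checked. Reads from a shared stretch could not be assigned to either gene without a stated strand setting.

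**Figure D2:**
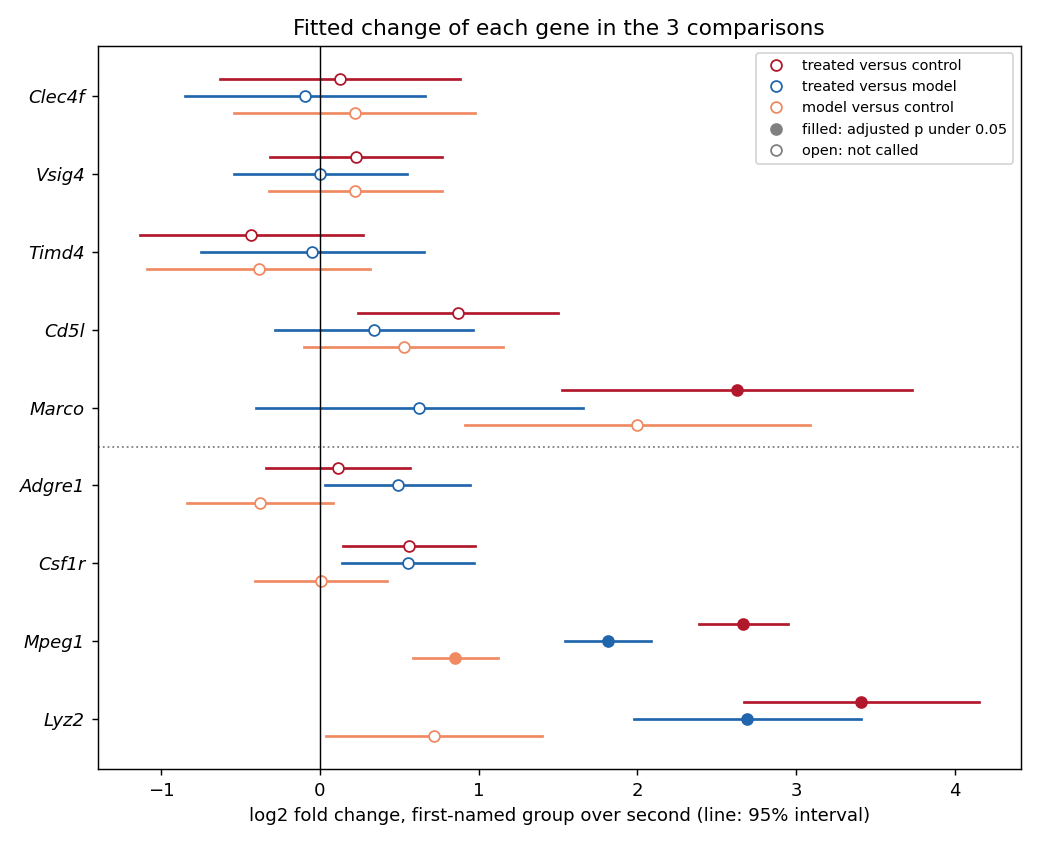
Fitted log2 fold change of each gene with its 95% interval, for treated over control, treated over model and model over control; filled points were called at an adjusted p under 0.05. Mpeg1 is filled in all 3, Lyz2 in 2 and Marco in treated over control, at 2.63, while the intervals of Clec4f, Vsig4 and Timd4 cross 0.

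Per length of transcript, Lyz2 became the most abundant gene of the set in treated livers. On the FPKM scale, Lyz2 had 192 ± 41.0 in treated, 26.5 ± 12.7 in model and 15.5 ± 2.78 in control livers. Clec4f led in model livers at 41.3 ± 6.61 FPKM and in control livers at 34.4 ± 10.2 FPKM, and had 43.3 ± 18.8 FPKM in treated livers. The order by mean FPKM in treated livers was Lyz2, Cd5l, Clec4f, Mpeg1, Vsig4, Csf1r, Marco, Timd4 and Adgre1. Within it, Cd5l, Clec4f and Mpeg1 overlapped their neighbours, as did Vsig4, Csf1r and Marco, and Timd4 and Adgre1. In model livers the order was Clec4f, Cd5l, Lyz2, Vsig4, Mpeg1, Csf1r, Marco, Timd4 and Adgre1, with overlap between Cd5l and Lyz2, Vsig4 and Mpeg1, and Csf1r and Marco. Control livers gave Clec4f, Cd5l, Lyz2, Vsig4, Csf1r, Mpeg1, Timd4, Adgre1 and Marco, where Clec4f, Cd5l and Lyz2 overlapped in turn, as did Csf1r and Mpeg1, and Adgre1 and Marco. Marco thus held the lowest place in control livers, at 1.23 ± 0.445 FPKM, against 8.76 ± 5.48 FPKM in treated and 5.06 ± 0.659 FPKM in model livers.

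The balance between the summed resident and the summed general macrophage genes differed in treated livers, where Mpeg1 and Lyz2 were the general genes called higher. The 5 resident genes summed to 209, 185 and 374 CPM in treated, 239.8, 256 and 212 CPM in model, and 192, 134 and 230.2 CPM in control livers. For the 4 general genes the sums were 495, 539 and 493 CPM in treated, 128, 159 and 122 CPM in model, and 101, 85.6 and 108 CPM in control livers. Sums of the general genes were near-equal among treated livers, whereas sums of the resident genes there differed between libraries. The single general genes were less even: treated replicate 2 was the highest treated library for Lyz2 and the lowest for Mpeg1 and Csf1r. The log2 ratio of resident to general sums was -1.24, -1.54 and -0.40 in treated livers, 0.90, 0.69 and 0.80 in model livers, and 0.93, 0.65 and 1.09 in control livers. Treated libraries did not overlap the others, and model and control libraries did. Without Lyz2 the log2 ratio was -0.34, -0.20 and 0.49 in treated, 1.32, 1.39 and 1.16 in model, and 1.41, 1.09 and 1.42 in control livers, and treated libraries again lay below all others. Mpeg1, which also rose, remains in that sum. A ratio to Adgre1 and Csf1r alone was not computed, so the shift cannot be extended to those genes. These ratios are descriptions and have no test, because the genes had been chosen with their values known.

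**Figure D3:**
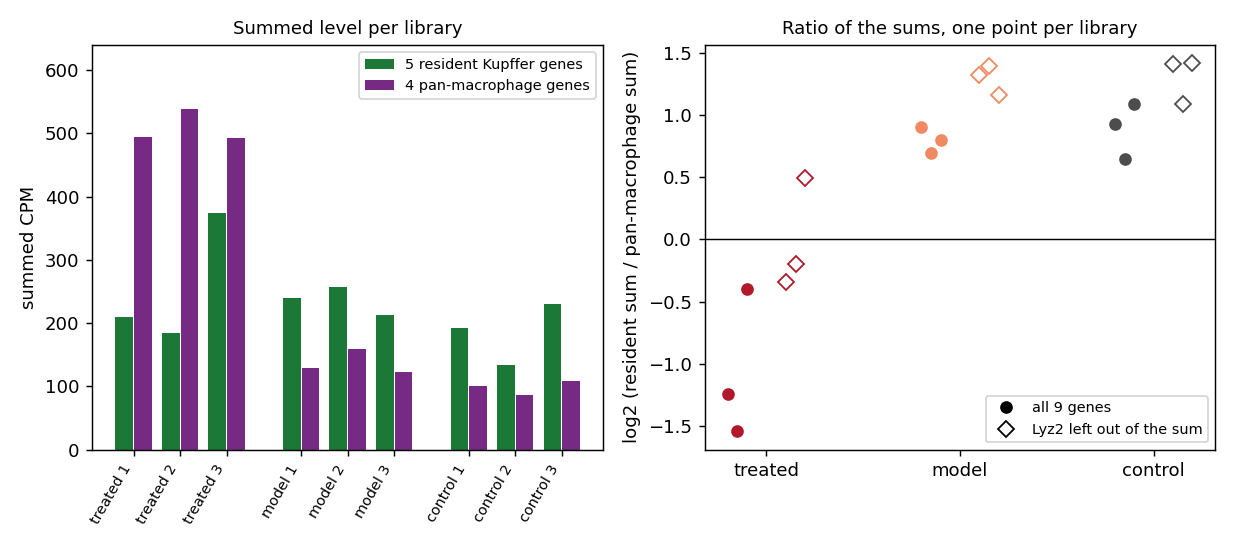
Log2 ratio of the summed CPM of the 5 resident genes to the 4 general macrophage genes in every library, with and without Lyz2 (right), beside the 2 sums themselves (left). Treated libraries lie at -1.54 to -0.40 with Lyz2 and at -0.34 to 0.49 without it, below every model and control library in both versions. Mpeg1 is part of the general sum in both.

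Set against Clec4f within the same library, on the FPKM scale, Vsig4 overlapped between all groups, and each other gene given here had at least 1 pair of groups without overlap. Vsig4 was 0.343, 0.343 and 0.278 of Clec4f in treated, 0.284, 0.292 and 0.292 in model, and 0.262, 0.327 and 0.288 in control livers. Timd4 was 0.0636, 0.0573 and 0.0590 of Clec4f in treated livers and 0.0498, 0.0540 and 0.0711 in model livers, below the 0.0901, 0.0814 and 0.0894 of control livers in every library. Cd5l was 1.66, 0.858 and 0.964 of Clec4f in treated, 0.905, 0.687 and 0.847 in model, and 0.767, 0.638 and 0.566 in control livers, so that treated libraries lay above all control libraries and overlapped the model libraries. For Marco the proportion was 0.258, 0.110 and 0.226 in treated, 0.111, 0.112 and 0.1498 in model, and 0.0439, 0.0300 and 0.0322 in control livers. Mpeg1 reached 1.60, 0.986 and 0.624 of Clec4f in treated livers, 0.263, 0.197 and 0.305 in model livers, and 0.160, 0.210 and 0.134 in control livers. The Csf1r proportion was 0.300, 0.237 and 0.182 in treated, 0.136, 0.144 and 0.146 in model, and 0.161, 0.183 and 0.157 in control livers, so that treated replicate 3 lay within the control range.

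Within groups, most of the 9 genes varied together from library to library, in differing degree. Treated replicate 3 was the highest treated library for 7 of the 9 genes, all but Mpeg1 and Lyz2, and control replicate 2 was the lowest control library for 8 of 9, all but Lyz2. Over the 9 libraries, deviations of log2 CPM from the group mean correlated at 0.97 between Clec4f and Vsig4, 0.93 between Clec4f and Timd4 and 0.93 between Clec4f and Csf1r. Cd5l and Marco correlated at 0.93. The lowest value among pairs of the 5 resident genes was 0.55, between Vsig4 and Cd5l, and Adgre1 correlated at 0.82 with Clec4f. Cd5l and Marco correlated at 0.61 and 0.53 with Mpeg1. Clec4f correlated at 0.03 with Mpeg1 and at 0.10 with Lyz2, and Mpeg1 and Lyz2 correlated at -0.75 within groups, although at 0.94 when groups were left in. These are descriptions over 9 libraries that share scaling and group means, and have no p. Csf1r had its highest value with Clec4f and Vsig4, both resident genes.

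**Figure D4:**
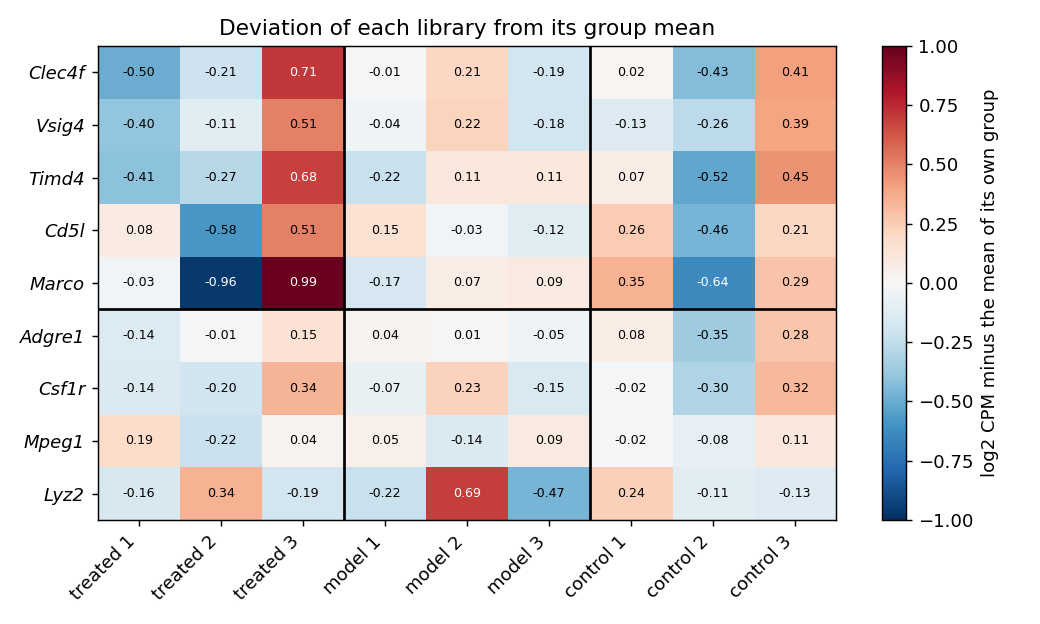
Deviation of each gene's log2 CPM from its group mean as a colour map, with genes in rows and libraries in columns, treated left of model and control. Treated replicate 3 deviates by 0.71 for Clec4f and 0.99 for Marco but by 0.04 for Mpeg1, and treated replicate 2 by -0.96 for Marco.

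Likeness was ranked among 11984 genes outside the set with at least 1 CPM on average, without those bearing only a predicted or clone name. Genes whose profile over the 9 libraries was most like the mean of the 5 resident genes were Arhgap4 (Pearson r = 0.97), Cfp (0.95), Ncf1 (0.91), Arhgef1 (0.90) and Lsm8 (0.89). Cfp encodes properdin, which stabilises the alternative complement convertase, and had 23.9 CPM in treated, 22.7 CPM in model and 20.97 CPM in control livers on average. Ncf1 encodes a subunit of the phagocyte NADPH oxidase. Closest to the mean of the 4 general genes were Entpd1 (r = 1.00), Adamts14 (0.99), Tmsb4x (0.98), Rpl15 (0.98) and Cerk (0.97). Entpd1, the ectonucleotidase CD39, averaged 10.4 CPM in treated, 4.11 CPM in model and 4.39 CPM in control livers. These values describe similarity over 9 libraries in 3 groups, and genes changing in treated livers share that step.

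Beyond the 9 genes, other Kupffer cell genes changed in both directions, whereas other general macrophage genes mostly rose. Of 20 other Kupffer cell genes, 5 rose and 4 fell in treated compared with control livers. Cdh5, among those that fell, is also counted with the liver endothelial markers below. Which cells gave the changes of the genes on this list was not tested. The median of the 20 was -0.27 in log2 fold change, against -0.01 over all genes tested. Hmox1, the haem oxygenase that breaks down haem, rose 2.49-fold, with 53.8 CPM in treated and 21.6 CPM in control livers (edgeR adjusted p = 0.000899). Slc40a1, the iron exporter ferroportin, fell, with 85.7 CPM in treated and 172 CPM in control livers (log2 -1.003, adjusted p = 0.00098). Between treated and model livers 2 rose and 2 fell, and without model replicate 1 none rose and 1 fell. Between model and control livers none was called by edgeR, with 7 at an unadjusted p under 0.05 and 3 called by DESeq2. C1qa, C1qb and C1qc, the subunits of complement C1q made largely by macrophages, were not called by edgeR. Their median log2 fold change was 0.72 in treated over control, where 2 had an unadjusted p under 0.05 and DESeq2 called 2. C1qa itself averaged 49.9 CPM in treated, 35.7 CPM in model and 32.3 CPM in control livers.

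Of 20 other general macrophage genes tested, 13 rose and 1 fell in treated over model livers, with a median of 1.34 in log2, and 16 rose and 2 fell in treated over control, with a median of 1.83. Without model replicate 1, 10 rose and 1 fell in treated over model livers. Cd68, a lysosomal membrane protein, had 54.3 ± 7.05 CPM in treated, 14.97 ± 4.41 CPM in model and 7.49 ± 0.210 CPM in control livers (SD, n = 3 each). It rose 3.63-fold over model (edgeR adjusted p = 0.000346) and 7.26-fold over control (1.36e-05). Its 2.00-fold rise in model over control livers (adjusted p = 0.0319) was lost in 8 of 20 alternatives. Ctss, the lysosomal protease cathepsin S, averaged 141 CPM in treated, 23.1 CPM in model and 16.9 CPM in control livers. Fcgr2b, the inhibitory Fc receptor that liver sinusoidal endothelium also expresses, fell in each comparison, to 11.4 CPM in treated and 21.1 CPM in model livers, against 49.8 CPM in control livers. Mrc1, the mannose receptor shared with that endothelium, was the other gene that fell in treated over control livers.

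Ligands of the CSF1 receptor, chains of the GM-CSF receptor family and signalling proteins were read next to Csf1r. Of 12 such genes, 7 rose and none fell in treated over model livers, and 8 rose in treated over control. None was called in model over control by edgeR, with 2 at an unadjusted p under 0.05 and 1 called by DESeq2. Those that rose included Csf2ra, Csf2rb and Csf2rb2, which belong to the GM-CSF receptor family and are not partners of the CSF1 receptor. Tyrobp, which rose too, is also counted among the other general macrophage genes. The median log2 fold change of the 12 was 1.15 for treated over model, 1.46 for treated over control and 0.21 for model over control. The ligands were not among those called by edgeR: Csf1 had 14.4 CPM in treated, 10.2 CPM in model and 9.14 CPM in control livers (edgeR adjusted p = 0.0556 for treated over control), and Il34 had 1.47, 1.20 and 2.04 CPM in treated, model and control livers. In treated over control, Csf1 was called higher in 6 of 20 alternatives, DESeq2 among them, and DESeq2 called 11 of the 12 genes. Csf2rb, the shared beta chain of the GM-CSF, IL-3 and IL-5 receptors, rose 2.72-fold in treated over model livers (adjusted p = 0.00235), and Syk, a tyrosine kinase below Fc and integrin receptors, rose 2.35-fold (0.00112). Without model replicate 1, 6 of the 12 rose in that comparison.

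Transcription factors of macrophages were mixed. Of 16 tested, 3 rose (Spi1, Zeb2 and Cebpb) and 2 fell (Maf and Cebpa) in treated over model livers. Spi1, which encodes PU.1, had 14.3 ± 2.56 CPM in treated, 4.47 CPM in model and 3.79 CPM in control livers, and rose 3.20-fold over model (edgeR adjusted p = 0.000744). In treated over control 5 rose and 2 fell, and in model over control none was called by edgeR, with 3 at an unadjusted p under 0.05 and 2 called by DESeq2. Of the factors that maintain Kupffer cells, Nr1h3, which encodes the sterol sensor LXR alpha, had 86.0 CPM in treated, 90.1 CPM in model and 87.9 CPM in control livers, and Id3 had 28.1, 23.9 and 29.8 CPM in treated, model and control livers. Neither was called. Spic, the factor of red pulp macrophages that take up red cells, had 3.58 CPM in treated, 6.35 CPM in model and 2.95 CPM in control livers, with an adjusted p of 0.116 for model over control. Hepatocytes also express Nr1h3, Maf and Cebpa.

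Markers of other cells differed between the same libraries. Of 14 genes of infiltrating monocytes tested, 8 rose in treated over control livers and 2 (Itgam and Vcan) in treated over model, where without model replicate 1 none was called. Itgam, which rose in both, is also counted among the other general macrophage genes above. Chil3 alone rose in model over control livers, a call lost in 11 of 20 alternatives. Ccr2, the receptor that brings monocytes out of the marrow, had 5.10 ± 0.995 CPM in treated, 2.39 ± 0.489 CPM in model and 1.42 ± 0.655 CPM in control livers. The sum over all 15 monocyte genes of the list, 1 of them not tested, ran from 31.7 to 49.6 CPM in treated, 17.4 to 21.2 CPM in model and 8.73 to 11.2 CPM in control livers. The 12 neutrophil markers summed to 14.0 to 205 CPM in treated, 14.97 to 34.5 CPM in model and 3.99 to 6.69 CPM in control livers, of which 5 of 11 tested rose in treated over control and none in the other comparisons by edgeR (5 at an unadjusted p under 0.05 and 3 by DESeq2 in model over control), with the top value in treated replicate 3, the library highest for Clec4f and Marco. For Lyz2, which neutrophils also make, treated replicate 3 was the lowest treated library, and treated replicate 2, with the lowest neutrophil sum, was the highest. Liver endothelial markers fell: 11 of 11 in treated over control, 6 of 11 in treated over model and 8 of 11 in model over control. Without model replicate 1 the numbers were 2 of 11 in treated over model and 6 of 11 in model over control. Endothelial markers had sums of 75.7 to 118 CPM in treated, 147 to 166 CPM in model and 354 to 453 CPM in control livers. Of 12 lymphocyte and 7 cholangiocyte markers none was called in any comparison by edgeR, and in treated over model 2 lymphocyte markers had an unadjusted p under 0.05 and DESeq2 called 1. Of 8 dendritic cell markers 1 (Itgax) rose in treated over model and in treated over control. Stellate cell markers gave 2 that rose and 5 that fell of 12 in treated over control, hepatocyte markers 4 that fell of 9, and erythroid genes 1 in each direction of 6. The part of these cells in the values of the 9 genes was not tested. Gpnmb, a gene of lipid-laden macrophages, had 254 CPM in treated, 7.47 CPM in model and 1.56 CPM in control livers, and Trem2 had 11.2, 1.63 and 0.368 CPM in treated, model and control livers. Of 10 genes of lipid-associated macrophages, 8 rose in treated over control, 7 in treated over model and 5 in model over control livers. Gpnmb was called in each, and Trem2 in treated over control alone by edgeR. For treated over model, 5 of 20 alternatives called Trem2.

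**Figure D5:**
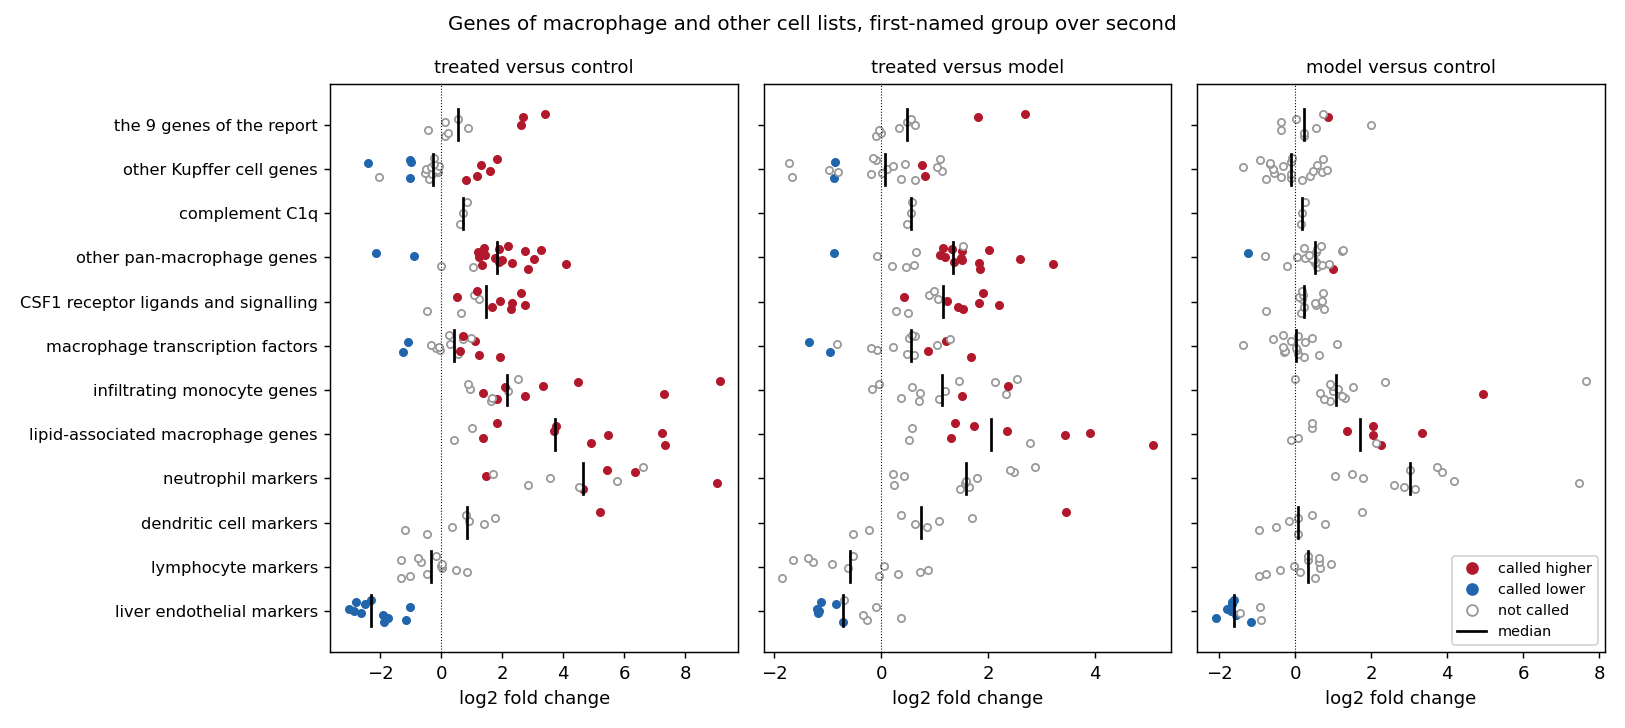
Log2 fold change of every tested gene in the 9-gene set and in lists of macrophage and other cell genes, for treated over control, treated over model and model over control, with filled points for called genes and a bar at each list's median. Other general macrophage genes have medians of 1.83, 1.34 and 0.52, and liver endothelial markers of -2.29, -0.71 and -1.61.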

How the data were processed

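For 9 liver libraries the authors deposited estimated counts of genes, and FPKM (fragments per kilobase of transcript, scaled for depth) of genes and transcripts, per the file headers. The submitters' processing notes name the aligner HISAT2. Quantifier, annotation and strand setting: not given in the sources used here. These deposited estimated counts are whole numbers that followed FPKM times transcript length times a constant of each library within 1 count for at least 98.4% of transcripts. Of 27945 gene IDs, 27859 were in GENCODE M21, 25083 of them with equal coordinates, so the build is GRCm38. RNA was extracted with TRIzol, per the labels' protocols.

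The quasi-likelihood test of edgeR 4.0.16 (R 4.3.3) was run with robust dispersions and TMM scaling, as 1 fit over all libraries. The filterByExpr filter (minimum count 10, minimum total 15) left 18113 genes. P-values were adjusted by Benjamini-Hochberg within each comparison. CPM are on TMM-scaled library sizes, and means carry the SD of 3 libraries. Intervals are 95%. Log2 CPM for correlations used a prior count of 2. DESeq2 1.42.0, limma 3.58.1 (voom, and trend on log2 FPKM with a pseudocount of 0.1 or 1), other scalings, filters and left-out libraries were the 20 alternatives. The procedure was tested on simulated data. Sequences were aligned with Biopython 1.88, and tables made with Python 3.11.15.

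The members and the 16 other gene lists, with 186 entries of which 183 were in the files, were chosen with earlier results of these data known. Named genes were the members, up to 2 called genes per list and comparison with the smallest p, Cd68, Gpnmb, Trem2, Csf1, Il34, Spi1, Nr1h3, Id3, Spic, C1qa and Lyz1, and the 5 genes most like each member group. Of the lists outside the macrophage lineage, counts of calls are given, for stellate, hepatocyte and erythroid genes in treated over control only. Summed levels are given for the muscle, hepatocyte, neutrophil and endothelial lists. Ccr2, Mrc1, C1qb, C1qc, Zeb2, Cebpb, Maf, Csf2ra, Tyrobp and Cdh5 were named after their values were seen.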

Additional observations from a re-analysis of the deposited data

How the results depend on the processing

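Across 20 alternatives in each of 3 comparisons, no call among the 9 genes was lost and none turned direction. Genes called in model over control livers numbered 202, against 871 by DESeq2, 119 by limma on log2(FPKM + 1), 120 with the replicate block and 54 to 213 when 1 library was left out. Fewest were left without model replicate 2 (54), control replicate 3 (82), model replicate 3 (80), control replicate 2 (92) and model replicate 1 (109). In treated over model, 1748 became 2742 by DESeq2 and 882 to 1660 with 1 library left out, the lowest without model replicate 1 (882), model replicate 3 (972), treated replicate 1 (995) and treated replicate 3 (1093). In treated over control, 3231 became 4192 by DESeq2 and 2169 to 2996 with 1 library left out. Limma on log2(FPKM + 0.1) and log2(FPKM + 1) gave 4136 and 4205 there. Of the 9 genes, 1 was called in model over control, against 2 by DESeq2 and in the fit of 6 libraries, and 1 to 2 with a library left out. In treated over model 2 were called, against 3 by library totals alone, DESeq2 and limma on log2(FPKM + 1), and 2 to 2 with a library left out. In treated over control 3 were called, against 5 by library totals alone, DESeq2 and limma on log2(FPKM + 0.1) and log2(FPKM + 1), and 3 to 4 with a library left out. Scaling by library totals moved the median of all genes by 0.17 in treated over model and 0.21 in treated over control, and the share of calls that were higher to 80.1% and 78.7%, against 53.9% and 52.5%. The mean log2 ratio of resident to general sums was -1.06 in treated, 0.80 in model and 0.89 in control livers. Without Lyz2 it was -0.016 in treated, 1.29 in model and 1.31 in control livers, from FPKM 1.14 in model and 1.30 in control livers, and with a library left out -1.39 to -0.82 in treated, 0.74 to 0.85 in model and 0.79 to 1.01 in control livers. Same-numbered libraries did not deviate together over all genes tested (correlations of -0.08 to 0.07). A pairing that touches few genes would not show in this check, and the labels do not say what the numbers mean. The replicate block gave 1245 genes in treated over model and 2611 in treated over control, and 1, 2 and 4 of the 9 genes in model over control, treated over model and treated over control. Causes of these shifts were not tested. With 3 libraries a group, the 95% intervals of Clec4f and Timd4 reached to about 1 log2 unit, so smaller changes in them cannot be told from none.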
